A study of Rattus norvegicus with 30 samples.

Results

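The cytochrome P450 genes were taken as the protein-coding rows of the gene table whose symbol is Cyp followed by a family number, a subfamily letter and a gene number, without *Cyp24a1* and *Cyp27b1*. Of 68 such rows among 22293 protein-coding genes, the 40 with 10 or more counts in at least 5 of the 30 libraries are described here. They are 15 of 30 rows of the Cyp2 family, 10 of 16 rows of the Cyp4 family and 15 of 22 rows of the other families. The 28 rows left out never exceeded 12 counts in a library, and 7 of them had no count at all. Expression was measured by poly(A) mRNAseq in the right kidney of male Sprague-Dawley rats, an outbred strain, and the renal cortex (Cx) and outer medulla (OM) were sequenced separately. Low salt (LS) rats ate AIN-76A chow with 0.4% NaCl, and the other rats were switched to 4.0% NaCl for 14 d (HS14) or 21 d (HS21). Each tissue and diet group had 5 libraries. The Cx and OM of a group were dissected from the kidneys of 5 rats. Whether a Cx and an OM library of the same number came from the same rat is not given in the labels. The rats' age is not given for these groups in the sources used here. All libraries are of whole dissected tissue, so that fewer cells of a type and less RNA per cell cannot be told apart in any value below.

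Cytochromes P450 are heme proteins that insert 1 atom of oxygen into a substrate, with electrons supplied by P450 oxidoreductase in the endoplasmic reticulum or by ferredoxin in mitochondria. In the kidney the proximal tubule is their main site. Cyp4a enzymes hydroxylate arachidonic acid at its ω end and make 20-HETE, which constricts renal arterioles and inhibits tubular sodium transport. Cyp2c and Cyp2j enzymes convert the same fatty acid into epoxyeicosatrienoic acids, which dilate vessels and also inhibit sodium transport. Other families act on sterols, steroid hormones, retinoic acid, vitamin D, drugs and aromatic hydrocarbons.

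Between 5408126 and 21842843 counts per library fell on genes, and the second lowest total was 12748841. The lowest was replicate 10 of OM HS14. The Cx carried its label in the summed expression of 15 proximal tubule markers, which was 22995 ± 901 CPM (counts scaled to library size, SD, n = 5) on LS. The 5 thick ascending limb markers summed to 1701 ± 225 CPM in Cx LS and to 16990 ± 4305 CPM in OM LS. The OM libraries differed widely in proximal tubule markers, and the cause was not tested. The proximal tubule markers summed to 2507 CPM in OM LS replicate 5 and to 27145 CPM in OM LS replicate 2, which is above every Cx library. Replicate 2 was also the highest OM LS library in distal convoluted tubule markers (378 CPM, group median 29.8) and podocyte markers (239 CPM, group median 141). It was the lowest in thick ascending limb markers (10244 CPM, group median 17553). For the tissue comparison and for diet in the OM, calls are also given without replicate 2 or replicate 5 of OM LS. Defining markers of other organs were low. The 4 adrenal cortex markers found (of 5 listed) summed to 0.620 to 3.24 CPM per library and 5 hepatocyte markers to 0 to 1.11 CPM. The 4 urothelium markers summed to 5.50 ± 3.27 CPM in OM LS and to 0.277 ± 0.190 CPM in Cx LS.

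A pair of enzymes made up most of the P450 mRNA in the cortex. On the authors' FPKM scale, which divides by gene length and so allows levels of different genes to be set side by side, a row named *Cyp4a2* (ENSRNOG00000030154) stood at 2198 ± 358 (SD, n = 5) in Cx LS. *Cyp2c23*, the main arachidonic acid epoxygenase of the rat kidney, stood at 1307 ± 115. The next levels were far lower, with *Cyp4a8* at 169 ± 30.3, a second row named *Cyp4a2* (ENSRNOG00000009741) at 165 ± 20.3, *Cyp2d2* at 143 ± 26.2 and *Cyp2e1* at 139 ± 8.85 FPKM. The library ranges of each of these 4 and its neighbour in the order overlap. *Cyp4f1* followed at 83.1 ± 8.72 and *Cyp4a1* at 68.8 ± 10.2 FPKM, and the remaining 32 genes were below 16 FPKM, led by *Cyp20a1* (15.6 ± 0.889), *Cyp4b1* (12.2 ± 1.77), *Cyp2d4* (9.50 ± 1.14) and *Cyp2d5* (8.47 ± 2.45). Both *Cyp4a2* rows lie on chromosome 5 of Rnor_6.0, ENSRNOG00000030154 at chr5:134196912-134207863 and ENSRNOG00000009741 at chr5:134469270-134484839, and are called here the abundant and the minor *Cyp4a2* row. Reads that map to more than 1 place were not counted, so near-identical copies of the Cyp4a, Cyp2c and Cyp2d groups are uncertain in their split.

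**Figure D1:**
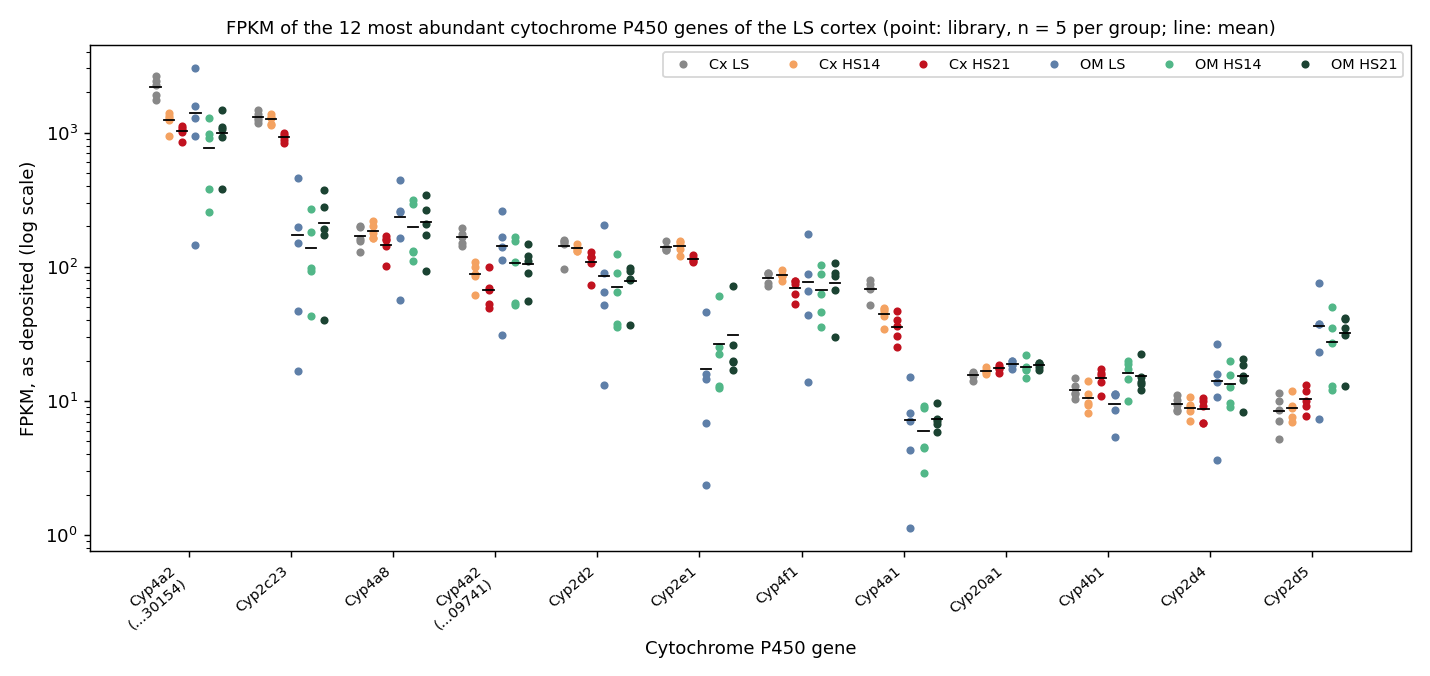
FPKM as deposited (log scale) of the 12 cytochrome P450 genes with the highest mean in Cx LS, with 1 point per library, 5 libraries per group and a line at each group mean. The abundant *Cyp4a2* row and *Cyp2c23* stand above all others in the Cx, and the OM points of most genes spread more widely than the Cx points.

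The family sums shifted with diet in the cortex. The Cyp4 sum was 2706 ± 392 FPKM in Cx LS, 1668 ± 198 in Cx HS14 and 1370 ± 151 in Cx HS21. The Cyp2 sum was 1645 ± 108 FPKM in Cx LS, 1591 ± 116 in Cx HS14 and 1212 ± 63.3 in Cx HS21. The other families together moved the opposite way but were small, with 30.6 ± 2.82 FPKM in Cx LS, 35.1 ± 1.44 in Cx HS14 and 42.7 ± 3.84 in Cx HS21. For Cyp4 the lowest LS library, at 2227 FPKM, stood above the highest HS14 library, at 1879. For the other families the lowest HS21 library, at 37.6 FPKM, stood above the highest LS library, at 33.6. All 40 genes together took 0.831% ± 0.0721 of the counts in Cx LS, 0.630% ± 0.0503 in Cx HS14 and 0.548% ± 0.0416 in Cx HS21.

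High salt lowered the mRNA of Cyp4a ω-hydroxylases in the cortex at both times. The abundant *Cyp4a2* row read 5722, 4162, 3838, 4927 and 5304 CPM in the 5 Cx LS libraries. It read 2911, 3056, 2077, 2749 and 2811 CPM in Cx HS14 and 2479, 1888, 2196, 2260 and 2341 CPM in Cx HS21. Every library of either HS group was below every LS library. The log2 ratio to LS was -0.82 (SE 0.13, adjusted *P* = 0.0111, edgeR) at HS14 and -1.10 (SE 0.11, adjusted *P* = 4.61e-05) at HS21. The latter is a level of 0.465 times that on LS. When all 30 libraries shared 1 estimate of the spread, the ratio at HS21 was -1.10 with an adjusted *P* of 0.105, so the call holds in the Cx libraries alone and not in that fit.

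The minor *Cyp4a2* row and *Cyp4a1* followed the same order. The minor row read 322, 250, 236, 292 and 277 CPM in Cx LS, against 103 to 182 CPM in Cx HS14 and 83.6 to 167 CPM in Cx HS21. *Cyp4a1*, an ω-hydroxylase known as a target of the fatty acid receptor PPARα, read 167, 146, 110, 158 and 143 CPM in Cx LS, against 72.8 to 105 CPM in Cx HS14 and 54.4 to 99.1 CPM in Cx HS21. Neither gene had an HS library within the LS range. The minor row had log2 ratios of -0.90 (SE 0.14, adjusted *P* = 0.0108) at HS14 and -1.29 (SE 0.17, adjusted *P* = 0.0002) at HS21. *Cyp4a1* changed by -0.63 (SE 0.12, adjusted *P* = 0.0219) and -0.94 (SE 0.16, adjusted *P* = 0.000748). The HS14 and HS21 ratios share the same 5 LS libraries. The minor row kept its HS21 call with all 30 libraries in 1 fit (adjusted *P* = 0.0197) and *Cyp4a1* did not (adjusted *P* = 0.0737). At HS14 that fit called none of the 3 (adjusted *P* = 0.614 to 0.863). At HS14 the call of *Cyp4a1* was lost when Cx LS replicate 1, 2 or 4 or Cx HS14 replicate 8 was left out.

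*Cyp4a8*, also on chromosome 5 (chr5:133978954-134008255), did not pass the test in any comparison. It read 401, 320, 389, 500 and 492 CPM in Cx LS, 408 to 555 CPM in Cx HS14 and 254 to 421 CPM in Cx HS21. All 3 ranges overlap, and the log2 ratio to LS was 0.14 (SE 0.12, adjusted *P* = 0.638) at HS14 and -0.21 (SE 0.15, adjusted *P* = 0.286) at HS21. Within a library, the abundant *Cyp4a2* row was 9.86 to 14.3 times *Cyp4a8* (CPM) in Cx LS, 4.64 to 7.11 times in Cx HS14 and 5.56 to 7.45 times in Cx HS21. This ratio was chosen after its values were seen and is given without a test. In the OM it was 2.27 to 6.02 on LS, 2.03 to 6.68 at HS14 and 2.81 to 4.88 at HS21, with all groups overlapping. *Cyp4f1*, of the leukotriene ω-hydroxylase group, read 161 to 202 CPM in Cx LS and 119 to 175 CPM in Cx HS21 (log2 ratio -0.26, SE 0.11, adjusted *P* = 0.0829). Of the 8 ω-hydroxylases described, 6 had enough counts for the Cx tests, and *Cyp4f6* and *Cyp4f37* did not.

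**Figure D2:**
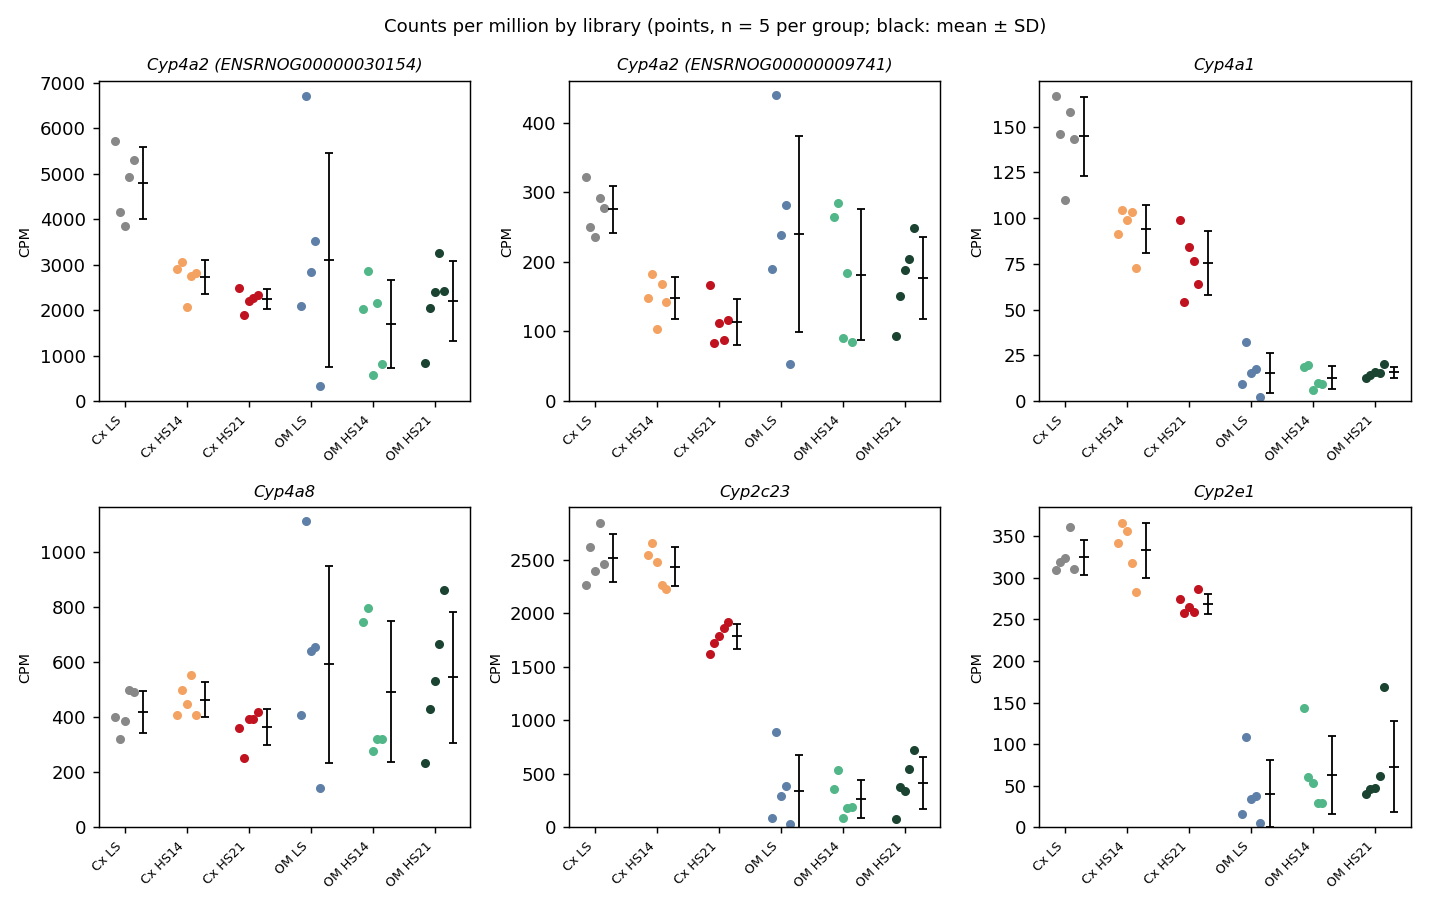
CPM by library of 4 Cyp4a rows, *Cyp2c23* and *Cyp2e1* in the 6 groups (linear scale from 0, 5 points per group, black bars are mean ± SD and are cut at 0). Both *Cyp4a2* rows and *Cyp4a1* lie lower in both HS groups of the Cx than on LS, *Cyp2c23* and *Cyp2e1* lie lower in Cx HS21, and *Cyp4a8* overlaps throughout.

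*Cyp4a2* and *Cyp4a8* both lie on chromosome 5, and the *Cyp4a2* rows were called lowered where *Cyp4a8* was not. The 250 bases before the start of each gene are shown, and their part in this was not tested. They are from RefSeq's GRCr8 tables, in which 31 of 39 member symbols had a single entry. The symbol *Cyp4a2* has 1 entry there and 2 rows in the counts. The distance of this entry from *Cyp4a8* is close to that of the abundant row from *Cyp4a8* in Rnor_6.0. The minor row lies further away, and the match between the 2 builds was not tested. The *Cyp4a2* stretch is chr5:134170909-134171158 and that of *Cyp4a8* is chr5:133970227-133970476, both on the minus strand and printed 5′ to 3′. Capitals mark AGGTCA, the half-site that nuclear receptors such as PPARα with RXRα bind as a spaced repeat, searched on both strands.
Cyp4a2: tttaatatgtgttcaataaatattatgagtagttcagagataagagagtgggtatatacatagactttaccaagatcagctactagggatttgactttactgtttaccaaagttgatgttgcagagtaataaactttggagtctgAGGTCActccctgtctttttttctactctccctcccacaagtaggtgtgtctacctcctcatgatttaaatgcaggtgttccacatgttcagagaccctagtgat
Cyp4a8: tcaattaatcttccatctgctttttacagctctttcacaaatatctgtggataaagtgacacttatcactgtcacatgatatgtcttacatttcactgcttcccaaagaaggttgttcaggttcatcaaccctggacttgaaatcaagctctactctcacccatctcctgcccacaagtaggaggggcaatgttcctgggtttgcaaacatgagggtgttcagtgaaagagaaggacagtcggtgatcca
The *Cyp4a2* stretch holds 1 such half-site, starting 105 bases before the gene, and the *Cyp4a8* stretch holds none. Of all 33469 RefSeq stretches of this length, 14.1% hold AGGTCA, as do 9 of the 31 of these genes. The full repeat, 2 copies of AGGTCA with 1 base between them, is in 0.0508% of all stretches and in 0 of the 31. These are matches of letters in a window.

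The epoxygenase *Cyp2c23* fell at HS21 and not at HS14. It read 2267, 2623, 2395, 2846 and 2461 CPM in Cx LS, 2224 to 2655 CPM in Cx HS14 and 1623, 1720, 1792, 1859 and 1921 CPM in Cx HS21. Its HS21 libraries all lay below the LS and the HS14 libraries. The log2 ratio was -0.50 (SE 0.072, adjusted *P* = 0.000329) for HS21 to LS, and -0.44 (SE 0.076, adjusted *P* = 0.00793) for HS21 to HS14. With all 30 libraries in 1 fit neither was called (adjusted *P* = 0.595 and 0.71), so both calls hold in the Cx libraries alone. For HS14 to LS it was -0.06 (SE 0.075, adjusted *P* = 0.766). The other 4 epoxygenases did not pass the test against LS. At HS21 the log2 ratio was 1.01 (SE 0.63) for *Cyp2c11*, 0.92 (SE 0.35, adjusted *P* = 0.0569) for *Cyp2c13* (ENSRNOG00000013241), 0.26 (SE 0.14) for *Cyp2j10* and 0.20 (SE 0.24) for *Cyp2j4*. From HS14 to HS21 *Cyp2c13* rose, from 12.8 to 17.1 CPM in the HS14 libraries to 13.3 to 43.9 CPM in the HS21 libraries, with a log2 ratio of 1.01 (adjusted *P* = 0.0266, SE 0.26). This call was lost in 5 of 10 fits that left out 1 library.

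Smaller decreases at HS21 were seen in *Cyp2e1* and *Cyp2r1*. *Cyp2e1*, which oxidizes ethanol and ketones, read 309 to 361 CPM in Cx LS and 258 to 287 CPM in Cx HS21, which do not overlap. Its log2 ratio was -0.27 (SE 0.054, adjusted *P* = 0.00205), and the call was lost when libraries were scaled by their total counts. *Cyp2r1*, the main hydroxylase of vitamin D in the liver, read 7.96 to 13.1 CPM in Cx LS and 5.78 to 9.16 CPM in Cx HS21 (log2 ratio -0.48, SE 0.16, adjusted *P* = 0.0358). These ranges overlap, and its call was lost in 6 of 10 fits that left out 1 library and with total-count scaling. Neither gene was called with all 30 libraries in 1 fit (adjusted *P* = 0.76 for *Cyp2e1* and 0.184 for *Cyp2r1*). The drug oxidase *Cyp2d2* read 162 to 266 CPM in Cx LS and 122 to 217 CPM in Cx HS21 (log2 ratio -0.38, SE 0.16, adjusted *P* = 0.08).

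The members that rose at HS21 were mostly of the other families and of low expression. *Cyp1a1*, the aromatic hydrocarbon oxidase that the Ah receptor induces, read 0.764, 0.157, 0.308, 0.661 and 1.09 CPM in Cx LS. It read 9.98, 0.531, 2.76, 3.60 and 2.65 CPM in Cx HS21 and 0.0650 to 0.560 CPM in Cx HS14. The HS21 library at 0.531 CPM lies within the LS range and the other 4 above it. The log2 ratio was 2.67 (SE 0.68, adjusted *P* = 0.00871). *Cyp1a1* had too few counts for the HS14 tests, so it entered the HS21 fit through the group in which it is high.

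*Cyp1b1*, which the same receptor induces, read 0.157 to 1.45 CPM in Cx LS, 1.43 to 4.46 CPM in Cx HS14 and 1.10 to 5.91 CPM in Cx HS21. Both HS ranges overlap that of LS at their lower end. Its log2 ratio was 1.58 (SE 0.45, adjusted *P* = 0.0906) at HS14 and 1.90 (SE 0.54, adjusted *P* = 0.0159) at HS21. The Ah receptor binds with its partner Arnt to GCGTG, and the 250 bases before *Cyp1b1* in RefSeq (GRCr8, chr6:21094315-21094564, plus strand) are shown with this core in capitals on either strand.
Cyp1b1: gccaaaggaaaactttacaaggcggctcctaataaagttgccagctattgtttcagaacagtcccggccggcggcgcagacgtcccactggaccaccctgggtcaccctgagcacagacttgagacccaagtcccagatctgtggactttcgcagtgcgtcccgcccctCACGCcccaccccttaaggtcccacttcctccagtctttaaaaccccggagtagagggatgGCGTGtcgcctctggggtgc
The core starts at 81 and at 20 bases before the gene. It is in 25.9% of all stretches of this length and in 9 of the 31 of these genes, so its presence is common. The mRNA of the receptor, *Ahr*, was 39.3 ± 2.01 CPM in Cx LS and 36.9 ± 4.98 CPM in Cx HS21 (log2 ratio -0.09, SE 0.09, adjusted *P* = 0.449), and *Arnt* fell by 0.39 on the log2 scale (SE 0.053, adjusted *P* = 0.000258).

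Of 4 tested enzymes of sterol oxidation 3 rose and 0 fell at HS21, beside 18.9% of all genes raised. Of the 3, *Cyp46a1* reached the count minimum of the test in 5 HS21 libraries and in 4 of 5 LS libraries. It thus entered the fit with the help of the group in which it is high. *Cyp27a1*, the mitochondrial enzyme that hydroxylates the cholesterol side chain, read 9.31 to 13.3 CPM in Cx LS, 11.1 to 17.9 CPM in Cx HS14 and 15.9 to 32.6 CPM in Cx HS21. *Cyp39a1*, which hydroxylates oxysterols, read 2.87 to 4.08 CPM in Cx LS and 4.77 to 7.37 CPM in Cx HS21. *Cyp46a1*, the cholesterol hydroxylase best known from brain, read 0.661 to 0.941 CPM in Cx LS and 1.16 to 1.93 CPM in Cx HS21. None of these 3 genes had an HS21 library within the LS range. The log2 ratios were 0.97 (SE 0.18, adjusted *P* = 0.00134) for *Cyp27a1*, 0.81 (SE 0.17, adjusted *P* = 0.00275) for *Cyp39a1* and 0.92 (SE 0.22, adjusted *P* = 0.0061) for *Cyp46a1*. The same 3 genes rose from HS14 to HS21, by log2 ratios of 0.72, 0.72 and 0.79 (adjusted *P* = 0.0237, 0.0391 and 0.0354). Leaving out 1 library ended these HS14 to HS21 calls for *Cyp39a1* and for *Cyp46a1* in 7 of 10 fits each, and for *Cyp27a1* in 2 of 10. With all 30 libraries in 1 fit none of the 3 was called for HS21 against HS14 (adjusted *P* = 0.0858 for *Cyp27a1*, 0.0509 for *Cyp39a1* and 0.174 for *Cyp46a1*), and *Cyp46a1* lost its call against LS (adjusted *P* = 0.0522). *Cyp7b1*, another oxysterol hydroxylase, read 3.06 to 7.57 CPM in Cx LS and 4.49 to 9.15 CPM in Cx HS21 (log2 ratio 0.58, SE 0.25, adjusted *P* = 0.0813).

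*Cyp4v3*, a fatty acid hydroxylase, was the one Cyp4 member that rose. It read 23.0 to 35.6 CPM in Cx LS, 37.1 to 58.6 CPM in Cx HS14 and 47.9 to 65.2 CPM in Cx HS21, with no overlap between LS and either HS group. The log2 ratio was 0.58 (SE 0.14, adjusted *P* = 0.0497) at HS14 and 0.92 (SE 0.11, adjusted *P* = 0.000119) at HS21. The HS14 call was lost in 8 of 10 fits that left out 1 library and with all 30 libraries in 1 fit (adjusted *P* = 0.63). *Cyp11a1*, which cleaves the cholesterol side chain at the start of steroid synthesis, read 4.37 to 9.79 CPM in Cx LS and 7.18 to 15.6 CPM in Cx HS21 (log2 ratio 0.86, SE 0.25, adjusted *P* = 0.0166). *Cyp2s1*, an extrahepatic enzyme, read 11 to 19.0 CPM in Cx LS and 17.3 to 25.5 CPM in Cx HS21 (log2 ratio 0.49, SE 0.14, adjusted *P* = 0.0154). Both of these ranges overlap, and *Cyp2s1* was not called with all 30 libraries in 1 fit (adjusted *P* = 0.0667). The retinoic acid hydroxylases *Cyp26a1* (log2 ratio -0.79, SE 0.39, adjusted *P* = 0.13) and *Cyp26b1* (-0.57, SE 0.27, adjusted *P* = 0.117) did not pass the test, and *Cyp26c1* had too few counts in the Cx.

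**Figure D3:**
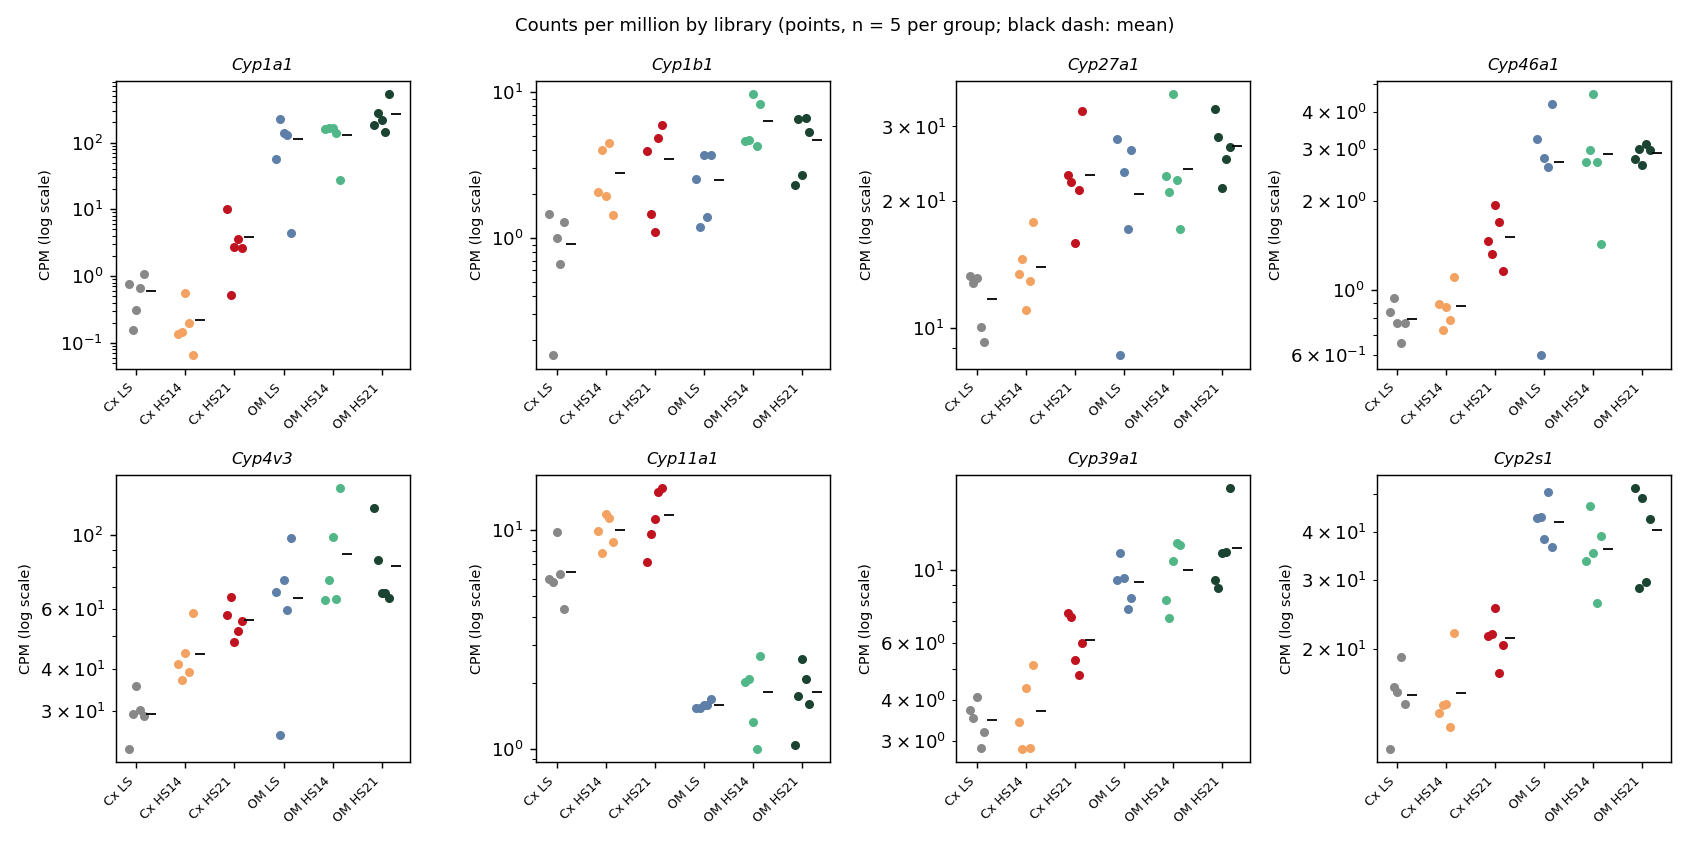
CPM by library (log scale, 5 points per group, black dash at the mean) of the 8 members raised in Cx HS21. In the Cx the HS21 points of *Cyp27a1*, *Cyp46a1*, *Cyp4v3* and *Cyp39a1* lie above all LS points, and for 7 of the 8 genes the OM means lie above the Cx LS mean, *Cyp11a1* being the exception.

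Counted over the members, 8 rose and 6 fell of 33 tested for HS21 against LS in the Cx. That is 42.4% called, beside 39.4% of all 14299 genes tested (18.9% raised and 20.5% lowered), so the share of members called is near that of all genes. At an unadjusted *P* under 0.05 there were 20 of 33 members and 48.1% of all genes. The groups did not overlap for 9 of the 33 members and for 26.6% of all genes. The 15 Cyp2 members had 1 raised and 3 lowered, the 8 tested Cyp4 members 1 raised and 3 lowered, and the 10 tested members of other families 6 raised and 0 lowered. Of the 8 raised members, 5 reached the count minimum in all 5 LS libraries, 3 of them of other families. *Cyp1a1*, *Cyp1b1* and *Cyp46a1* did not, and so entered the fit with the help of the group in which they are high. The family median log2 ratios were 0.04, -0.23 and 0.83, beside 0.00461 over all genes. With total-count scaling the members raised were 13, and all genes raised were 4401 instead of 2702 of 14299. The median of all genes was then 0.134 instead of 0.00461.

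For HS14 against LS in the Cx, 1 member rose and 3 fell of 32 tested, which is 12.5% beside 2.33% of 14181 genes (1.14% raised and 1.18% lowered). All 4 called were Cyp4 genes, of 8 tested in that family. The 15 Cyp2 members gave 0 calls by edgeR and also 0 at an unadjusted *P* under 0.05, a threshold passed by 8 of the 32 members and 17.4% of all genes. The groups did not overlap for 4 of 32 members and for 5.07% of all genes. For HS21 against HS14 in the Cx, 5 members rose and 3 fell of 32 tested, beside 16.2% of all 14395 genes called (6.5% raised and 9.69% lowered). The groups did not overlap for 5 members and for 9.66% of all genes, and 16 members and 33.6% of all genes had an unadjusted *P* under 0.05. The 3 that fell were *Cyp2c23*, *Cyp2e1* (log2 ratio -0.30, SE 0.071, adjusted *P* = 0.018) and *Cyp2r1* (-0.73, SE 0.16, adjusted *P* = 0.0141). *Cyp2d3*, of the drug-oxidizing group, rose by 0.79 (SE 0.23, adjusted *P* = 0.0405, lost in 7 of 10 fits that left out 1 library), next to *Cyp2c13* and the 3 sterol enzymes. With all 30 libraries in 1 fit, 0 members fell and 1 rose in this comparison, beside 170 and 259 of all 15494 genes. Leaving out Cx HS14 replicate 8 left 1 raised member and leaving out Cx HS14 replicate 10 gave 9. All genes raised moved too, from 935 of 14395 to 337 of 14556 and to 1476 of 14541. The 3 cortical comparisons share libraries with each other.

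**Figure D4:**
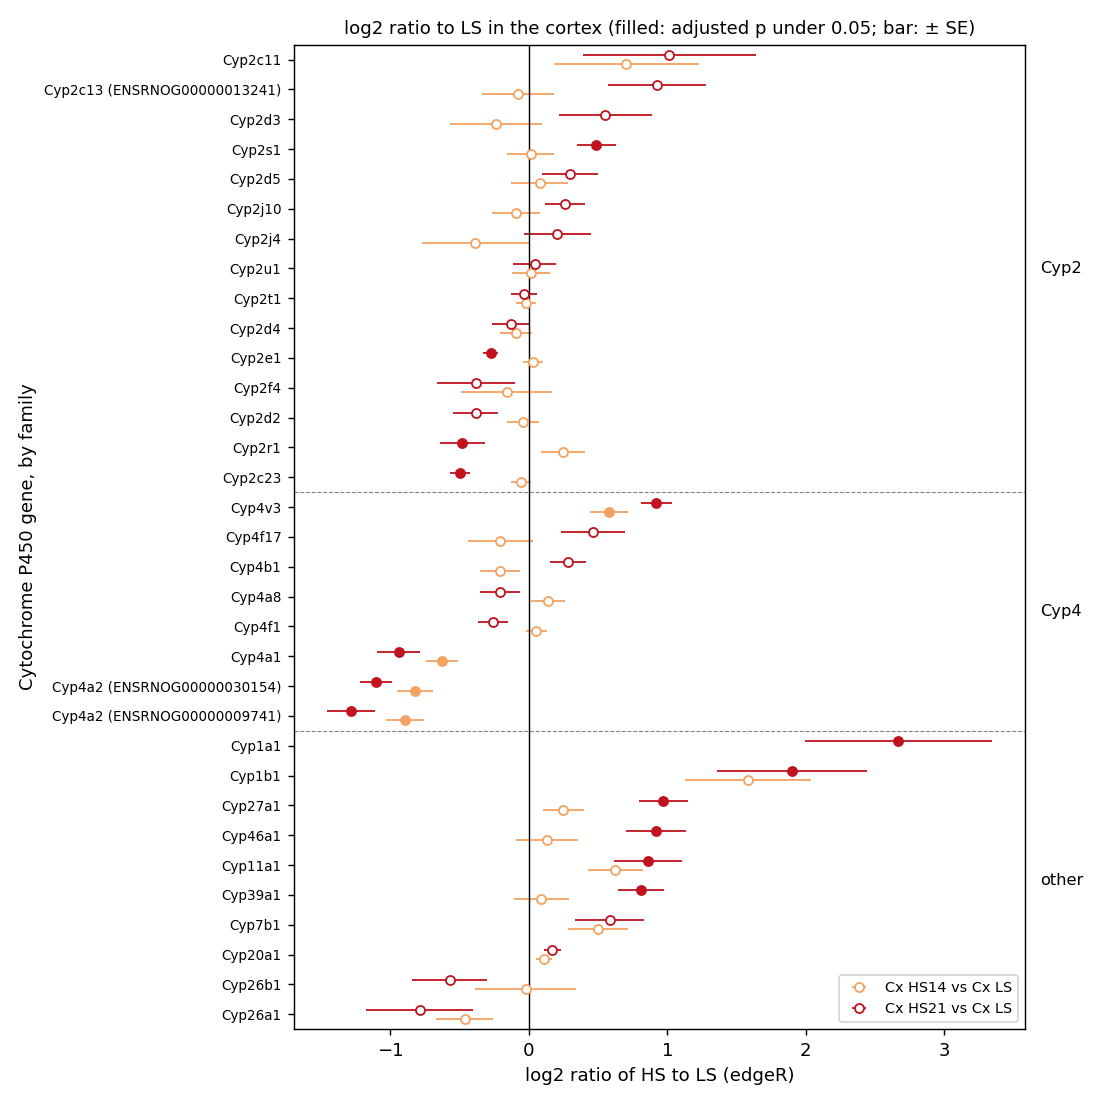
Log2 ratio to Cx LS (edgeR, bar ± SE) of each member tested at HS21, at HS14 (orange) and HS21 (red), by family, with filled points at an adjusted *P* under 0.05. Both *Cyp4a2* rows and *Cyp4a1* lie furthest to the left at HS21, and the 6 called members of other families all lie to the right.

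Markers of the cell types moved in the same samples. In Cx HS21, 13 of 15 proximal tubule markers fell and 1 rose (median log2 ratio -0.70), and their sum was 12691 to 17181 CPM against 21837 to 24333 CPM on LS. At HS14, 2 of 14 tested fell and 0 rose. Of 10 leukocyte markers, 10 rose at HS21 (median 1.89) and 7 at HS14 (median 0.78), with sums of 1021 to 1179 CPM in Cx LS, 1213 to 1789 in Cx HS14 and 1453 to 5864 in Cx HS21. At HS21, 3 of 4 collecting duct, 3 of 3 intercalated cell and 3 of 5 thick ascending limb markers rose. No marker of these lists was at 0 throughout a group, and the part of these changes in the members' values was not tested.

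For the 6 members lowered at HS21, the log2 CPM was also taken relative to the library's own mean log2 CPM over the 15 proximal tubule markers. These 6 were chosen by their calls on the same libraries, so the values are a description with no test. The relative difference from LS was -0.61 for the abundant *Cyp4a2* row, -0.84 for the minor row and -0.47 for *Cyp4a1*. It was -0.02 for *Cyp2c23*, 0.00894 for *Cyp2r1* and 0.21 for *Cyp2e1*. On this scale the *Cyp4a2* rows did not overlap between LS and HS21, and the other 4 did. At HS14 the relative differences were -0.66 for the abundant *Cyp4a2* row, -0.75 for the minor row and -0.46 for *Cyp4a1*. These values depend on how the markers are summarised. Their mean log2 CPM went from 9.07 in Cx LS to 8.60 in Cx HS21, a smaller step than their median log2 ratio of -0.70, and against the latter *Cyp4a1*, at -0.94, stands closer.

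The partners of P450 enzymes were also lowered in part at HS21. In the Cx at HS21, 20.5% of all genes fell, which is the background of the counts that follow. Of 7 electron donors 4 fell and 0 rose, among them P450 oxidoreductase *Por* (-0.45, SE 0.13, adjusted *P* = 0.0184) and *Pgrmc1* (-0.50, SE 0.04, adjusted *P* = 1.52e-05). Of 8 heme synthesis enzymes 3 fell, and the rate-limiting *Alas1* was not among them (log2 ratio -0.12, SE 0.082, adjusted *P* = 0.25). Of 10 receptors that control these genes 6 fell and 0 rose, led by *Ppara* from 72.7 ± 8.57 CPM on LS to 34.5 ± 4.36 CPM (log2 ratio -1.08, SE 0.098, adjusted *P* = 2.32e-05). Of 8 other tested targets of PPARα 7 fell, among them *Ehhadh*, of peroxisomal fatty acid oxidation, from 244 ± 15.5 CPM on LS to 125 ± 11.1 CPM at HS21 (log2 ratio -0.97, SE 0.068, adjusted *P* = 5.31e-06). At HS14, 5 of these 8 targets fell, beside 1.18% of all genes. Of the 10 receptors, *Ppara* among them, 0 rose and 0 fell at HS14. Both epoxide hydrolases, which clear the epoxides made by Cyp2c and Cyp2j enzymes, fell at HS21, *Ephx1* by a log2 ratio of -0.64 and *Ephx2* by -0.48. Of 4 enzymes of heme breakdown 1 rose and 1 fell, beside 18.9% of all genes raised. The one that rose was the inducible *Hmox1* (log2 ratio 1.16, SE 0.40, adjusted *P* = 0.0398). In the OM none of these genes was called at HS21.

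Many P450 mRNAs differed in level between the outer medulla and the cortex on LS. Of 35 members tested, 16 were higher and 6 lower in OM LS than in Cx LS, which is 62.9% beside 40.9% of all 14295 genes (21.3% higher and 19.5% lower). The groups did not overlap for 13 members and for 29% of all genes, and 23 members and 49.1% of all genes had an unadjusted *P* under 0.05. Of the 16 higher members, 10 reached the count minimum in all 5 Cx LS libraries, and of the 6 lower ones 5 reached it in all 5 OM LS libraries. The others, *Cyp1a1*, *Cyp21a1*, *Cyp3a9*, *Cyp1b1*, *Cyp2c11*, *Cyp46a1* and the lower *Cyp2f4*, entered the fit with the help of the tissue in which they are high. *Cyp1a1* read 56.8, 224, 140, 132 and 4.47 CPM in OM LS, against at most 1.09 CPM in Cx LS (log2 ratio 7.49, SE 1.0). Its lowest OM library is replicate 5, which is also the lowest in proximal tubule markers. On the FPKM scale *Cyp1a1*, at 41.6 ± 31.4, ranked 7 among the members in OM LS, and was at 0.226 ± 0.141 in Cx LS.

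*Cyp21a1*, the steroid hydroxylase best known from the adrenal cortex, read 2.15, 3.25, 2.86, 2.92 and 0.745 CPM in OM LS. It had 175 counts over the 5 OM LS libraries and 3 over the 5 Cx LS libraries, a CPM ratio of 53.5 with an exact 95% interval of 18.0 to 262 for counting error only. No Cx LS library reached the count minimum for it. The adrenal cortex markers summed to 0.890 to 3.24 CPM in the OM LS libraries and to 1.15 to 2.57 CPM in the Cx LS libraries. Whether adrenal tissue had a part was not tested. The drug oxidases *Cyp2d3* (11.8 to 220 CPM in OM LS and 3.97 to 12.2 in Cx LS) and *Cyp2d5* (12 to 123 and 8.23 to 18.3 CPM) were higher in the OM by log2 ratios of 3.69 (SE 0.68, adjusted *P* = 0.00169) and 2.12 (SE 0.50, adjusted *P* = 0.00691). The epoxygenases *Cyp2c11* and *Cyp2j4* were higher by 3.14 (SE 0.82, adjusted *P* = 0.0113) and 2.11 (SE 0.35, adjusted *P* = 0.000926). The ranges of *Cyp2j4* did not overlap, with 4.94 to 19.9 CPM in OM LS and 2.27 to 4.43 in Cx LS. For *Cyp2d3*, *Cyp2d5*, *Cyp2c11* and *Cyp2j4* the highest OM LS library was replicate 2 and the lowest replicate 5, as for the proximal tubule markers.

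*Cyp2c23*, *Cyp4a1* and *Cyp2e1* were lower in the OM. *Cyp2c23* read 91.3, 889, 292, 385 and 33.0 CPM in OM LS, all below the 2267 CPM of the lowest Cx LS library (log2 ratio -2.90, SE 0.71, adjusted *P* = 0.00845). *Cyp4a1* read 2.44 to 32.1 CPM (log2 ratio -3.25, SE 0.51, adjusted *P* = 0.000648) and *Cyp2e1* 5.69 to 109 CPM (-3.00, SE 0.63, adjusted *P* = 0.00348). *Cyp11a1* stood at 1.54 to 1.69 CPM in OM LS (log2 ratio -2.02, SE 0.21, adjusted *P* = 5.81e-05), and *Cyp2r1* was lower by -0.90 (SE 0.15, adjusted *P* = 0.00102). *Cyp2f4*, of the lung-type oxidases, read 0 to 0.171 CPM in OM LS and 0.808 to 2.59 in Cx LS. In contrast, both *Cyp4a2* rows and *Cyp4a8* overlapped between the tissues, with log2 ratios of -0.63 (SE 0.56), -0.20 (SE 0.41) and 0.50 (SE 0.42), adjusted *P* = 0.399, 0.73 and 0.371. Without OM LS replicate 2, 16 members were higher and 7 lower, beside 3768 and 3790 of all 14561 genes. The log2 ratio was then -3.67 for *Cyp2c23*, 3.15 for *Cyp2d3*, 1.65 for *Cyp2d5* and 2.44 for *Cyp2c11*, all still called. Without OM LS replicate 5, 18 members were higher, beside 3038 of all 14448 genes. The ratio of *Cyp2c23* was then -2.60, while *Cyp27a1* and *Cyp1b1* lost their calls (adjusted *P* = 0.0666 and 0.071).

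**Figure D5:**
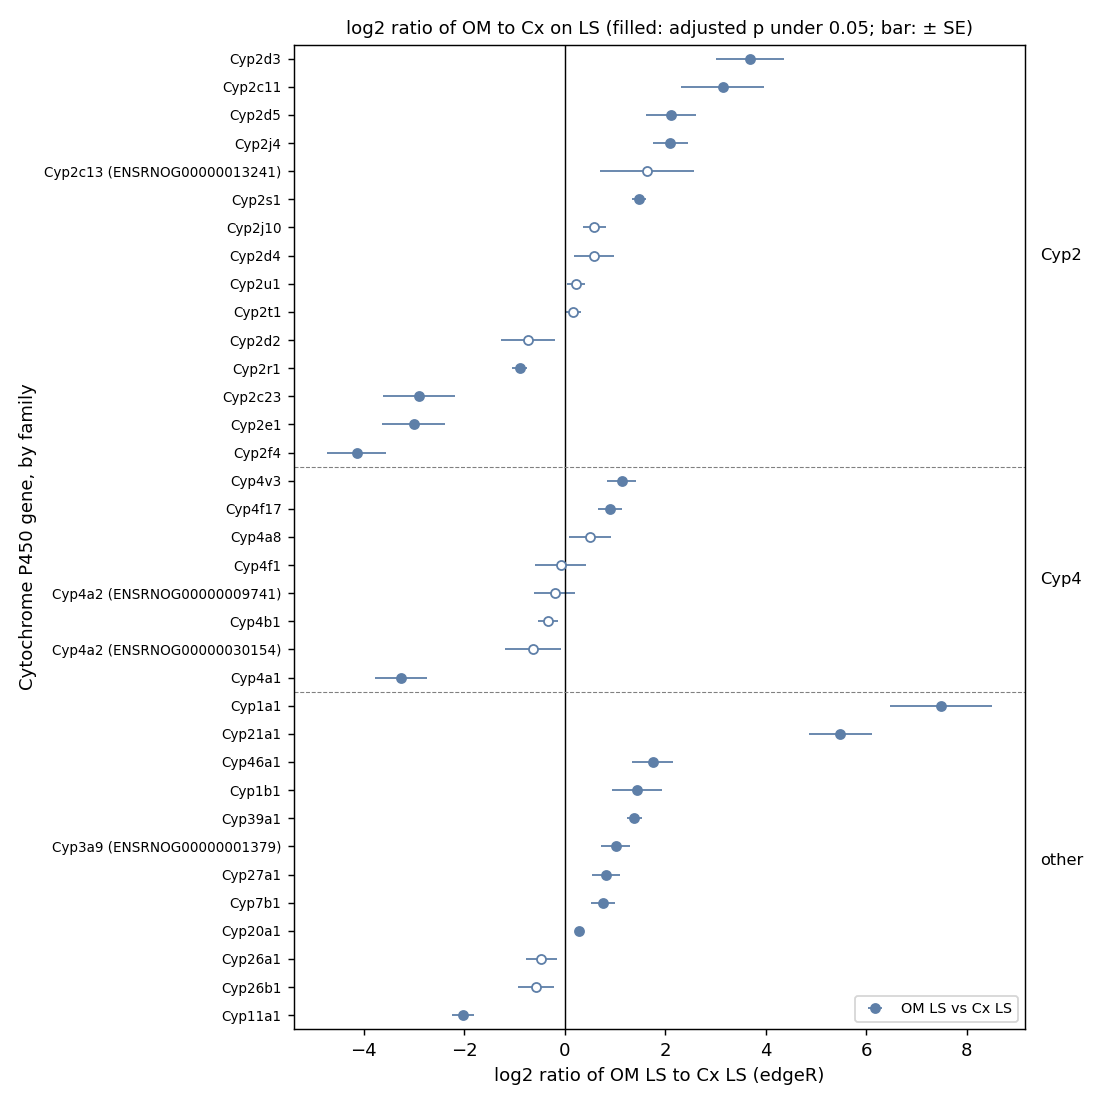
Log2 ratio of OM LS to Cx LS (edgeR, bar ± SE) of each tested member, by family, with filled points at an adjusted *P* under 0.05. The ratios run from -4.14 for *Cyp2f4* to 7.49 for *Cyp1a1*, and the *Cyp4a2* rows and *Cyp4a8* lie near 0 with long bars.

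In the outer medulla no member passed the test for diet. For HS14 against LS, edgeR called 0 of 36 members, beside 0.00694% of all 14417 genes. An unadjusted *P* under 0.05 was found for 3 members and 5.73% of all genes, and 2 members and 1.53% of all genes did not overlap between the groups. DESeq2 called 0 of the 40 members entered, with 90 genes raised and 20 lowered of 21786 entered. For HS21 against LS, edgeR called 0 of 36 members, beside 0.769% of 14555 genes (0.639% raised and 0.131% lowered). An unadjusted *P* under 0.05 was found for 2 members and 11.2% of all genes, and 1 member and 3.48% of all genes did not overlap. DESeq2 called 0 of 40 members, with 555 genes raised and 166 lowered of 21873 entered. For HS21 against HS14 edgeR called 0 of 34 members and 0 of all 14499 genes, with 2 members and 3.77% of all genes at an unadjusted *P* under 0.05. The abundant *Cyp4a2* row read 2087, 6716, 2846, 3508 and 326 CPM in OM LS, 2015, 2864, 565, 2159 and 817 CPM in OM HS14 and 839, 2045, 2390, 3259 and 2424 CPM in OM HS21. All 3 groups overlap, and the log2 ratio to LS was -0.89 (SE 0.67, adjusted *P* = 0.994) at HS14 and -0.51 (SE 0.61, adjusted *P* = 0.865) at HS21. These standard errors are several times those of the Cx, and a change of the cortical size was not detectable at this spread. Without OM LS replicate 2, or without it and OM HS14 replicate 10 together at HS14, 0 members were called.

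In the OM 3 members did not overlap between the diets in 1 comparison, and none was called by edgeR on the libraries of 2 groups. With all 30 libraries in 1 fit *Cyp3a9* was called lowered at HS14. *Cyp4b1* read 10.8 to 22.8 CPM in OM LS and 23.9 to 44.5 CPM in OM HS21, without overlap (log2 ratio 0.68, SE 0.23, adjusted *P* = 0.245). *Cyp3a9* (ENSRNOG00000001379) read 0.745 to 1.03 CPM in OM LS and 0.178 to 0.478 CPM in OM HS14 (log2 ratio -1.63, SE 0.35, adjusted *P* = 0.387). The third was *Cyp1b1*, at 1.196 to 3.72 CPM in OM LS and 4.28 to 9.66 CPM in OM HS14 (log2 ratio 1.32, SE 0.39, adjusted *P* = 0.565). *Cyp1a1* read 144 to 532 CPM in OM HS21 (log2 ratio to LS 1.28, SE 0.74, adjusted *P* = 0.599) and *Cyp1b1* 2.32 to 6.59 CPM (0.90, SE 0.41, adjusted *P* = 0.462).

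Whether the change at HS21 differed between the tissues was tested directly as the tissue by diet interaction. Of 37 members edgeR called 0, beside 0.665% of all 15194 genes. DESeq2 called 0 of 40 members, with 337 genes raised and 201 lowered of 22919 entered. An unadjusted *P* under 0.05 in edgeR was found for 2 members, *Cyp2s1* and *Cyp20a1*, and for 15.6% of all genes. The log2 ratio in the OM minus that in the Cx was 0.60 (SE 0.65, adjusted *P* = 0.695) for the abundant *Cyp4a2* row, 0.98 (SE 0.53, adjusted *P* = 0.381) for *Cyp4a1* and 0.79 (SE 0.83, adjusted *P* = 0.684) for *Cyp2c23*. For *Cyp46a1* it was -0.83 (SE 0.44, adjusted *P* = 0.381), and without OM LS replicate 2 it was -1.05 (adjusted *P* = 0.0213). This was the 1 member called of 39 without that library. Over all 15391 genes 729 were then raised and 546 lowered, against 68 and 33 of 15194 with it. The cortical changes are not shown to differ from those of the OM for any member in the fit of these 20 libraries.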

How the data were processed

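Libraries from the Cx and OM of 5 rats per group were poly(A)-selected and unstranded. The authors aligned the reads to Ensembl Rnor_6.0 with HISAT2 2.0.5, and the submitters' notes also name StringTie 1.3.3b. The deposited counts per gene are those of featureCounts 1.5.0-p3, without normalization, and are the basis of all tests. The deposited FPKM values were made by the authors per gene length and served for levels and for an alternative. The same deposited table holds the authors' group means (a normalized signal), log2 fold changes and p-values from DESeq2, none of which were used.

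Genes were tested with edgeR 4.0.16 in R 4.3.3 (filterByExpr, TMM, quasi-likelihood F-test, Benjamini-Hochberg adjustment over all genes tested, called at an adjusted *P* under 0.05) on the 10 libraries of 2 groups, or 20 for the interaction. The SE was taken from the same fit. CPM used the TMM factors of all 30 libraries, with a prior count of 2 for logarithms. The 5 samples of a group were taken as separate rats, and *P* measures the spread between these samples. No pair of libraries within a group, of 60 compared, was a duplicate (smallest ratio of difference to counting noise 7.29). The fits were tested on simulated data. DESeq2 1.42.0, limma 3.58.1 on log2(FPKM + 1) and log2(FPKM + 0.1), other scalings and filters, a fit of all libraries, and leaving out each library were tried as alternatives.

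Members are named if they were among the 12 highest by mean FPKM in Cx LS, among the 12 strongest calls per direction for Cx HS21 against LS or the 6 strongest for other comparisons (mean of at least 1 CPM), or in the arachidonic acid lists. *Cyp2f4*, *Cyp3a9*, *Cyp7b1*, *Cyp8b1*, *Cyp17a1*, *Cyp26a1*, *Cyp26b1*, *Cyp26c1*, *Cyp4f6* and *Cyp4f37* fall outside this rule, as do the partner genes *Ahr*, *Arnt* and *Alas1*, and were named after their values were seen. The members and lists were chosen with earlier results of these data known. The values of 1 partner gene are not reported here.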

Additional observations from a re-analysis of the deposited data

Results flagged for a closer look

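In 162 groups of 5 CPM values (27 named members in 6 groups), 12 had 1 library whose gap to the nearest other exceeded Dixon's limit, where chance alone gives about 1 in 20 groups. In Cx LS, replicate 4 was low in *Cyp2d2* (162 CPM, others 249 to 266) and high in *Cyp2e1* (361 CPM, others 309 to 323). In Cx HS14, replicate 8 was high in *Cyp1a1* (0.56 CPM, others up to 0.198) and replicate 10 in *Cyp2s1* (21.9 CPM, others up to 14.4). In Cx HS21, replicate 13 was high in *Cyp2c11* (14.4 CPM, others up to 5.85).

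In the OM, LS replicate 2 was high in *Cyp2c13* (177 CPM, others 1.83 to 34.5), and this library also had the most proximal tubule markers. OM HS14 replicate 6 was high in *Cyp2e1* (143 CPM, others up to 60.3), and OM HS14 replicate 10, the library of fewest counts, was low in *Cyp1a1* (27.3 CPM, others 138 to 168). In OM HS21, replicate 15 was high in *Cyp2e1* (169 CPM, others up to 61.8) and in *Cyp39a1* (17.8 CPM, others up to 11.3). OM HS21 replicate 11, the lowest of its group in proximal tubule markers, was low in *Cyp2j4* (5.16 CPM, others 12.9 to 13.2) and *Cyp2j10* (4.18 CPM, others 6.87 to 7.36).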

How the results depend on the processing

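Counts of members called kept within 1.5 times of their value under most alternatives. This takes 0 against 0 as kept, which is the usual case for diet in the OM and for the interaction. Members raised at Cx HS14 (1 in the reported fit) were 3 with DESeq2 and 0 with total-count scaling, the 10-count filter, limma on log2(FPKM + 1) or log2(FPKM + 0.1), or all 30 libraries in one fit. All genes raised there were 162 in the reported fit, 500 with DESeq2 and 10 to 156 in the fits that gave 0 members. The fit of all 30 libraries shares the wide spread of the OM. It lowered 0 instead of 3 members at Cx HS14, 1 instead of 6 at Cx HS21 and 1 instead of 0 (*Cyp3a9*) at OM HS14. Over all genes it lowered 9 instead of 168, 883 instead of 2936 and 23 instead of 0. Members raised at Cx HS21 were 13 with total-count scaling instead of 8, and all genes raised were 4401 instead of 2702. For Cx HS21 against HS14, 8 members were raised with DESeq2, 8 with total-count scaling, 3 with either limma fit and 1 with all 30 libraries. The members lowered were 5 with DESeq2 and 0 with all 30 libraries. All genes raised were 1465, 2084, 835 and 824, and 259 in the same order, against 935 in the reported fit. All genes lowered were 1831 and 170, against 1395. Leaving out 1 library gave 0 to 1 raised and 2 to 3 lowered at Cx HS14, 8 to 9 and 5 to 6 at Cx HS21, 1 to 9 and 2 to 5 for Cx HS21 against HS14, 13 to 18 and 6 to 7 for OM LS against Cx LS, 0 throughout for diet in the OM, and 0 raised and 0 to 1 lowered in the interaction. With 1 library left out, all genes raised ran from 337 to 1476 for Cx HS21 against HS14. For OM LS against Cx LS they ran from 2544 to 3768. The cause of these shifts was not tested.

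With total-count scaling the median log2 ratio of all genes was 0.134 instead of 0.00461 at Cx HS21, 0.129 instead of 0.014 for Cx HS21 against HS14, 0.268 instead of 0.029 for OM LS against Cx LS and -0.159 instead of -0.055 in the interaction. The ratio to LS at Cx HS14 changed sign for *Cyp2c13* with limma (0.025 and 0.042 on the log2 scale) and without Cx LS replicate 4 (0.062) or 5 (range over left-out libraries -0.25 to 0.14), and for *Cyp2j10* without Cx HS14 replicate 9 (range -0.17 to 0.012). Neither gene was called. Equal replicate numbers of the Cx and OM were not used as pairs, since the labels do not say what a number marks and the correlation of the deviations was over 0.1 for only 10 of 15 numbers (-0.139 to 0.560). The data hint at pairing for some, as 10 of 15 libraries correlated best with their own number, all 5 at HS21 among them. With the replicate number as a block, OM LS against Cx LS gave 12 raised and 6 lowered members, *Cyp2c11*, *Cyp2d5*, *Cyp3a9* and *Cyp27a1* not being called (adjusted *P* = 0.0532 to 0.0896), and the interaction 0 and 0.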

Other observations

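A pair of scarce members had levels that the comparisons above leave out. *Cyp8b1*, a sterol hydroxylase of bile acid synthesis in the liver, read 2.15, 4.36, 4.90, 2.67 and 0 CPM in OM LS, where 5 hepatocyte markers summed to at most 1.11 CPM. It read 0 to 1.97 CPM in OM HS14 and 0.058 to 1.95 CPM in OM HS21, and at most 0.276 CPM in any Cx library. Its log2 ratio to OM LS was -2.42 (SE 1.1, edgeR adjusted *P* = 0.883) at HS14 and -1.88 (SE 0.93, adjusted *P* = 0.512) at HS21. *Cyp17a1*, of androgen synthesis, had 3 to 12 counts in each Cx LS library and 0 to 4 in each HS library of the Cx, and was not tested.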
